A study of Mus musculus with 22 samples.

Results

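The 39 mouse Hox genes were followed through motor neurons and endothelial cells of the embryonic spinal cord. Members were the 39 of 55376 counted genes whose symbol is Hox, a cluster letter from a to d and a paralogue number, so that antisense and read-through transcripts of the clusters were not included. All libraries came from mouse embryos at E12.5 (embryonic day), pooled by genotype before dissociation with papain and cell sorting. Motor neurons were sorted for GFP from an ISL1::GFP reporter and endothelial cells for Cherry from a Kdr::Cherry reporter, which marks cells that express the vascular endothelial growth factor receptor Kdr. A first set of libraries, called the knockout series here, was made from cord with its meninges and held wild-type and Plxnd1 knockout cells of both types. It had 3 libraries each of wild-type motor neurons, knockout motor neurons and knockout endothelial cells, and 2 of wild-type endothelial cells. A second set, the regional series, held wild-type endothelial cells only, 5 libraries from the cord parenchyma (spinal) and 5 from the meninges (meningeal). In spinal batches 1 to 3 only ventral cord was used, and in batches 4 and 5 the whole cord. The labels give neither the strain nor the Plxnd1 allele, and because embryos were pooled, p-values measure the spread between pools.

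Hox genes encode homeodomain transcription factors that give cells their position along the head-to-tail axis. They lie in clusters in which the order of the genes along the chromosome follows the order in which they come on along the body, with low paralogue numbers starting in the hindbrain and high numbers confined to the lumbar, sacral and tail regions. In the spinal cord the Hox code divides motor neurons into columns and pools at limb, trunk and neck levels, working with the TALE homeodomain cofactors Pbx and Meis, and many Hox genes are also active in mesoderm-derived cells, blood vessels included.

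The 4 clusters were counted as 11 HoxA genes on chromosome 6, 10 HoxB genes at chr11:96194316-96368256, 9 HoxC genes at chr15:102921103-103036852 and 9 HoxD genes at chr2:74668310-74765142 (mm10, GRCm38). For 12 members some exonic bases overlap another gene and could not be counted for that gene alone. The overlapped share was 79.3% of exonic bases for Hoxd3, 63.9% for Hoxb3, 58.5% for Hoxb2 and 45.1% for Hoxd4, and below 30% for the other 8 members, so levels of these genes are uncertain. Strand was ignored in the counts of the knockout series, so overlaps with antisense genes such as Hoxb3os matter most there. The series were counted differently, and levels were therefore compared only within a series.

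Libraries held 20680902 to 27035395 gene counts in the knockout series, of which 31168 to 174754 fell on Hox genes, and 15685784 to 21493255 in the regional series, of which 9818 to 37677 did. The wild-type endothelial library of batch 2 was identical to the knockout endothelial library of batch 1 at all 55376 genes and was left out, which leaves wild-type endothelial cells with n = 2. Plxnd1, the knocked-out semaphorin receptor, was at 175 and 213 counts per 1e6 library counts (CPM) in wild-type endothelial cells and at 15.4 to 28.9 CPM in knockout ones, and at 5.14 to 12.1 CPM in wild-type against 0.646 to 1.79 CPM in knockout motor neurons. All 8 motor neuron markers were higher and all 8 endothelial markers lower in wild-type motor neurons than in wild-type endothelial cells. The 9 meningeal and mesenchymal markers summed to 14361 to 17233 CPM in the endothelial libraries of the knockout series and to 14504 to 20675 CPM in meningeal libraries, against endothelial sums of 458.5 to 1079.7 and 823 to 1778 CPM. In 4 of 5 spinal libraries the endothelial sum was the larger, with endothelial sums of 1664 to 3841 CPM and mesenchymal sums of 1307 to 2588 CPM. Endothelial libraries other than the spinal ones thus carried a large amount of mesenchymal RNA. Spinal libraries carried pericyte RNA, with means of 1808 CPM for Rgs5, 1326 for Abcc9, 1043 for Pdgfrb, 435 for Cspg4 and 283 for Kcnj8. Kdr, the highest of the 8 endothelial markers there, had a mean of 746 CPM. In such bulk samples fewer cells of a type and less RNA per cell cannot be told apart.

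Hox genes of the middle paralogue groups, those of the HoxB cluster most of all, were far higher in motor neurons than in endothelial cells of the same series. The endothelial libraries of this series carried more mesenchymal than endothelial marker RNA, as given above. The part of this mesenchymal RNA in the differences between cell types was not tested. Hoxb8, which acts in trunk patterning and in spinal sensory circuits, was at 1395, 1292 and 2018 CPM in wild-type motor neurons of batches 1 to 3 and at 79.9 and 177 CPM in wild-type endothelial cells. In knockout cells it was at 1155, 1129 and 1660 CPM in motor neurons and at 96.3, 86.1 and 156 CPM in endothelial cells. Every motor neuron library lay above every endothelial library for this gene, and the batch 3 libraries were the highest of each group. The log2 fold change between wild-type cell types was 3.61 ± 0.42 (SE), with an adjusted p of 3.045e-05 in edgeR's quasi-likelihood test with Benjamini-Hochberg adjustment over all genes tested, the test used for all adjusted p-values here. It was 3.14 without wild-type endothelial replicate 1 and 4.30 without replicate 3.

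Hoxb9, whose paralogue group sets the trunk level of the cord, was at 1622, 1639 and 2143 CPM in wild-type motor neurons and at 121 and 208 CPM in wild-type endothelial cells. Knockout libraries held 1563, 1374 and 1978 CPM in motor neurons and 157, 136 and 199 CPM in endothelial cells. The cell types did not overlap, and the log2 fold change was 3.45 ± 0.30 in wild type (adjusted p = 3.612e-06) and 3.32 ± 0.25 in the knockout (adjusted p = 1.033e-06, edgeR). Batch 3 was again highest in all groups for both genes. The 7 neural progenitor and interneuron markers were also highest in batch 3 motor neurons (sums of 1363 CPM for wild type and 1251 for the knockout, against 817 to 1116 CPM in the other 4), where the motor neuron markers were lowest (535.5 and 520.6 CPM, against 845 to 1591 CPM). The part of this difference in cell content in the Hoxb8 and Hoxb9 levels was not tested.

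The region before and at the start of Hoxb8 is shown beside those of Hoxd4, whose start is likewise rich in TTTATNG, and Hoxa11, the tested member with the most negative difference between spinal and meningeal endothelial cells. Each window runs from 250 bases before to 50 bases after the start in RefSeq annotation of GRCm38.p6, on the gene's strand: chr11:96281655-96281954 (+) for Hoxb8, chr2:74721728-74722027 (+) for Hoxd4 and chr6:52245761-52246060 (−) for Hoxa11. Capitals mark matches, on either strand, to TTTATNG, the letters bound by CDX factors, or to TGATNNAT, a core of joint PBX and HOX binding.
Hoxb8: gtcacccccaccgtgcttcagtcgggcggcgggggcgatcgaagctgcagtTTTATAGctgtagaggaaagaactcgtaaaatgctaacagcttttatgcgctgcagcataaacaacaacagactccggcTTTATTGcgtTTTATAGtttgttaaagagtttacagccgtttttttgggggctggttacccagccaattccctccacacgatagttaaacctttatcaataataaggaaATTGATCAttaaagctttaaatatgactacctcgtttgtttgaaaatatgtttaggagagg
Hoxd4: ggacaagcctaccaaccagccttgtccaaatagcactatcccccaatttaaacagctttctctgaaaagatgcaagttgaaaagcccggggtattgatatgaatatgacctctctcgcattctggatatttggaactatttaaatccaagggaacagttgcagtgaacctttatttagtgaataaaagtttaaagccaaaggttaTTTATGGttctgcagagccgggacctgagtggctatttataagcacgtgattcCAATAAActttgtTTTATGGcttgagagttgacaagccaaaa
Hoxa11: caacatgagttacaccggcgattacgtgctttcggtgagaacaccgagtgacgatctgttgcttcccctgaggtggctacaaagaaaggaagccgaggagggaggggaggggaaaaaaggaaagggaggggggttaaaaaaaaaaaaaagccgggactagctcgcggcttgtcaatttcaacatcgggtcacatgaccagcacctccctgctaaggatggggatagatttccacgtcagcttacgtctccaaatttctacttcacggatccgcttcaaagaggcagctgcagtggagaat
The Hoxb8 window held 3 matches to TTTATNG and 1 to TGATNNAT, none overlapping another, the Hoxd4 window 3 matches to TTTATNG, and the Hoxa11 window no match to either. Promoter windows were found for 22 of the 39 members. TTTATNG occurred in windows of 2 of these 22 genes and in 10.9% of all 32851 windows, and TGATNNAT in windows of 4 of the 22 and in 8.85% of all windows. A match describes letters in the window and not binding.

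Of 38 members tested, 24 were higher and 0 lower in wild-type motor neurons than in wild-type endothelial cells, and in the knockout 27 were higher and 1 was lower. The background was high: 31.0% of all 19266 genes tested were higher in wild-type motor neurons and 33.5% in knockout ones, and in either direction 64.8% and 68.8% of genes passed. The median log2 fold change of the members was 1.40 in wild type against -0.02 over all genes tested, and 1.36 in the knockout. For 29 of 39 members all wild-type motor neuron libraries lay above all wild-type endothelial libraries, and for 1, Hoxa11, they lay below, beside 35.2% above and 37.9% below of the 22679 genes with 10 or more counts in all. With 1 library left out, 20 to 25 members were called in wild type and 25 to 28 in the knockout.

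**Figure D1:**
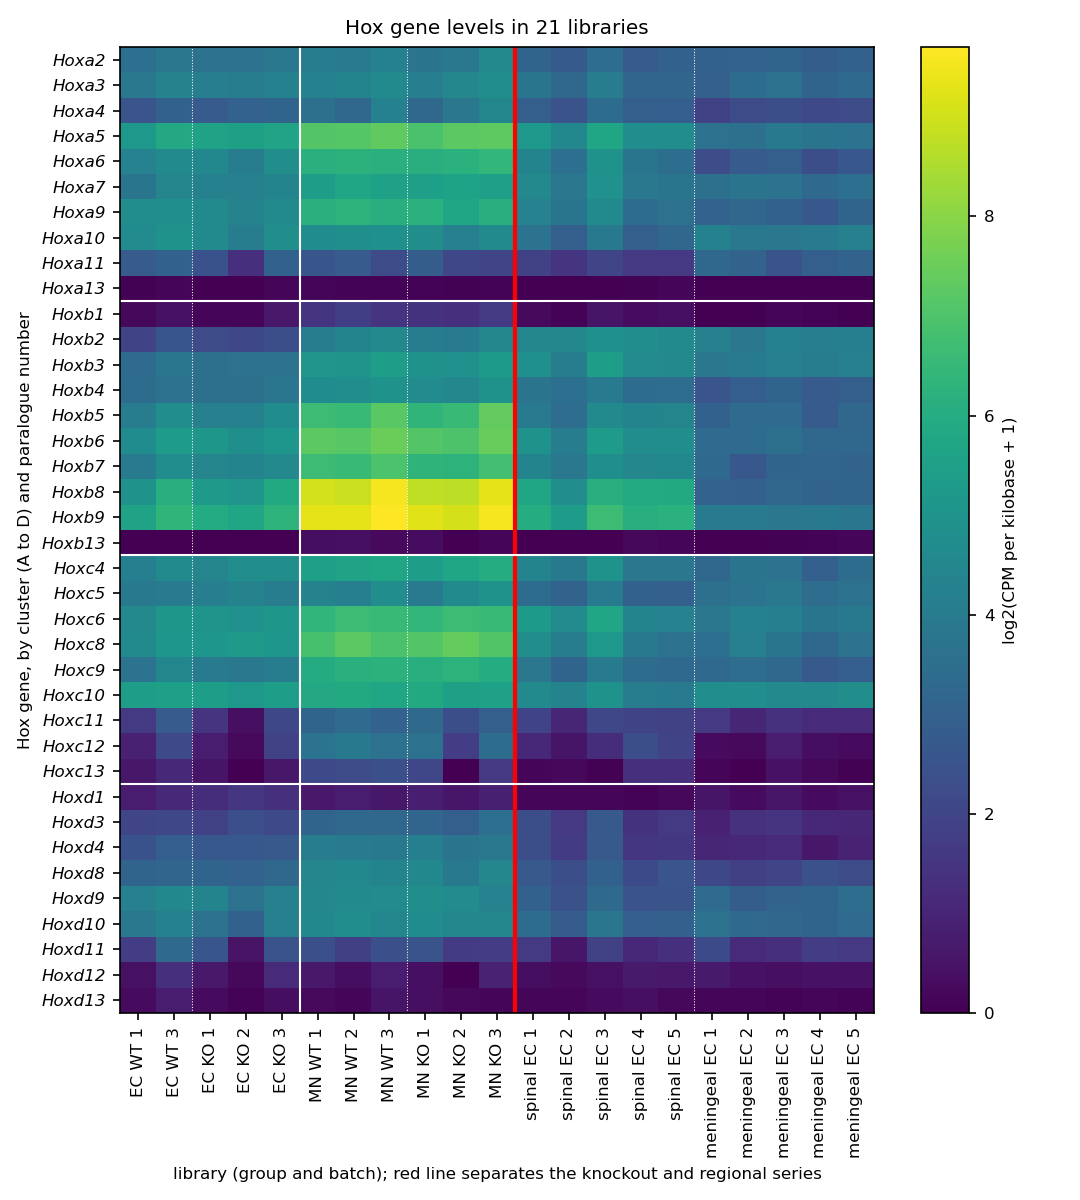
Levels of 38 Hox genes as log2(CPM per kb + 1) in each library, ordered by cluster and paralogue number, with the knockout series left and the regional series right of the red line (EC, endothelial cells, MN, motor neurons, WT, wild type, KO, Plxnd1 knockout). The motor neuron libraries stand out in the HoxB rows, while Hoxa13, Hoxb13 and Hoxd13 are low in every library.

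In the HoxB cluster all 9 neighbouring genes from Hoxb1 to Hoxb9 were higher in motor neurons of either genotype. Hoxb1, a hindbrain gene that specifies facial motor neurons, was low in both cell types, with 3.69, 5.24 and 3.69 CPM in wild-type motor neurons against 0.356 and 0.757 CPM in endothelial cells, a log2 fold change of 2.91 ± 0.60 (adjusted p = 0.001558, edgeR). Hoxb5, expressed at neck and brachial levels, rose by 2.45 ± 0.36, and Hoxb7 and Hoxb6 by 2.33 ± 0.25 and 2.28 ± 0.22 on the log2 scale. Hoxb2, a hindbrain gene that shares most of its exonic bases with other genes, was 2.30 ± 0.25 higher. Hoxb4 and Hoxb3 had the smallest differences of the cluster, 1.36 ± 0.16 and 1.65 ± 0.18. The far member Hoxb13, a tail gene, had 0 counts in both wild-type endothelial libraries and a mean of 0.571 CPM in wild-type motor neurons, at least 5.28-fold higher against a floor of 3 counts per library.

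HoxC members that set motor neuron identity were higher as well. Hoxc8, which patterns motor pools at brachial levels, was at 217, 287 and 223 CPM in wild-type motor neurons and at 43.7 and 61.8 CPM in endothelial cells. Its knockout values were 254, 315 and 251 CPM against 62.4, 69.0 and 62.6 CPM, so that no motor neuron library overlapped an endothelial one, and the wild-type log2 fold change was 2.20 ± 0.19 (adjusted p = 3.243e-06, edgeR). Hoxc9, which represses limb-level identity in thoracic motor neurons, was 2.07 ± 0.21 higher and Hoxc6, which acts in brachial limb motor neurons, 1.67 ± 0.17 higher. Hoxc5, which acts with Hoxa5 in phrenic motor neurons, did not pass the test, with 55.7, 50.8 and 76.7 CPM in wild-type motor neurons against 41.1 and 44.8 CPM.

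Among HoxA genes, Hoxa5 was at 256, 261 and 297 CPM in wild-type motor neurons and at 65.8 and 107 CPM in endothelial cells, with no overlap and a log2 fold change of 1.65 ± 0.20 (adjusted p = 3.49e-05, edgeR). Hoxa6, Hoxa7 and Hoxa9 rose by 1.76, 1.49 and 1.40 on the log2 scale, while Hoxa2 and Hoxa3, genes of the hindbrain and pharyngeal arches, did not pass, at 0.43 and 0.32. In the HoxD cluster Hoxd3, Hoxd4 and Hoxd8 rose by 1.39 to 1.47. Hoxd1, which acts in pain-sensing neurons of the mouse, was the only member called lower, in the knockout alone: it was at 1.37, 0.928 and 1.46 CPM in knockout motor neurons and at 2.58, 3.60 and 2.75 CPM in knockout endothelial cells, a log2 difference of -1.24 ± 0.28 (adjusted p = 0.002618, edgeR). In wild type the difference was -0.53 ± 0.32, the cell types overlapped, and the difference between genotypes did not pass a test of its own.

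**Figure D2:**
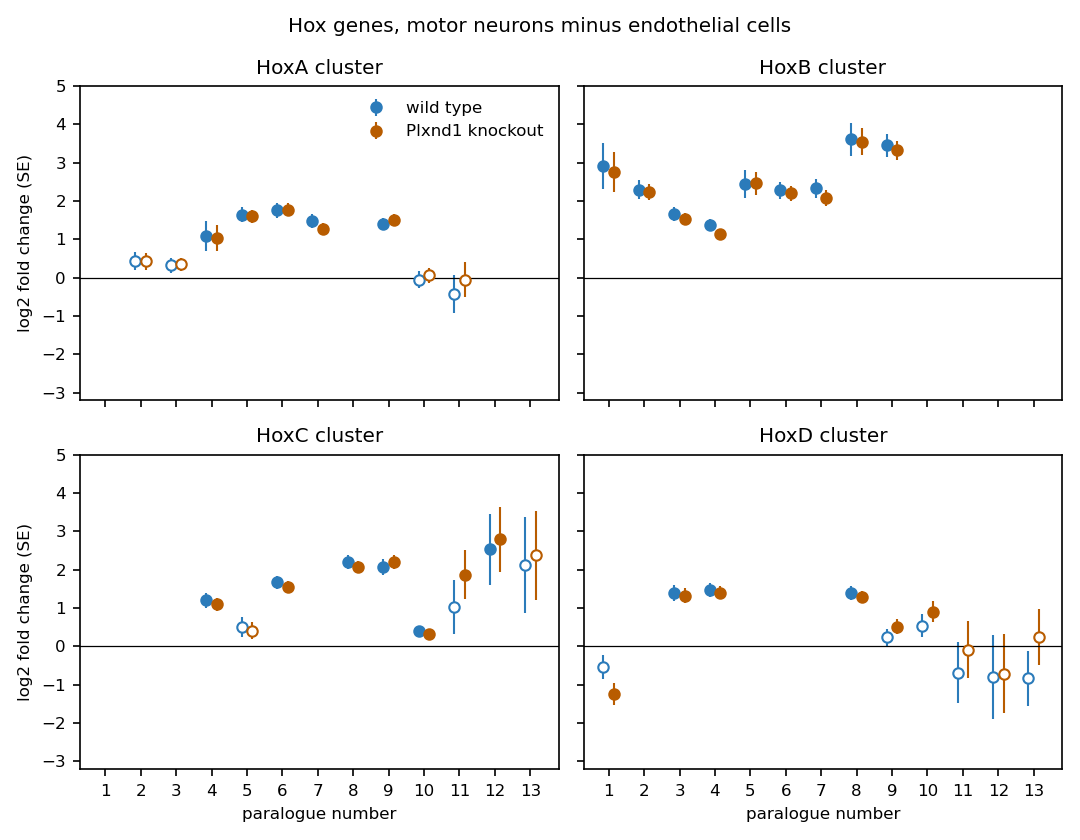
Log2 fold change of motor neurons over endothelial cells (y axis, with SE bars) against paralogue number (x axis), by cluster, in wild type and in the Plxnd1 knockout. Filled symbols have an adjusted p under 0.05 in edgeR, and Hoxb13 is not drawn because its fitted fold depends on the prior count. Hoxb8 and Hoxb9 are the highest points, and values for paralogues 10 to 13 lie below 1 in HoxA and HoxD.

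Among the 12 members of paralogue groups 10 to 13, none of HoxA or HoxD passed the test in wild type, although the libraries of Hoxa11 and Hoxd10 did not overlap. Hoxd10, which acts with Hoxc10 in lumbar motor neurons, was at 40.2, 49.2 and 38.3 CPM against 25.1 and 33.3 CPM, and Hoxa11 at 11.4, 13.4 and 8.47 CPM against 13.7 and 16.0 CPM. Hoxa10, of the lumbar level and the female reproductive tract, was at 79.2, 85.7 and 88.2 CPM in wild-type motor neurons and at 78.4 and 96.3 CPM in endothelial cells, a log2 difference of -0.05 ± 0.22. The groups overlapped fully. Hoxc10, which acts in lumbar motor neurons, was slightly higher, with 108, 113 and 98.9 CPM against 78.5 and 83.4 CPM and a log2 fold change of 0.39 ± 0.13 (adjusted p = 0.01803, edgeR). Hoxc12, a gene of the tail end of the cluster, was at 12.2, 14.8 and 11.5 CPM against 0.889 and 3.53 CPM, which gave 2.54 ± 0.93 (adjusted p = 0.03349, edgeR). Hoxc4 and Hoxa4, genes of the neck and hindbrain, were 1.21 ± 0.20 and 1.08 ± 0.39 higher. Other tested members that did not pass in wild type were Hoxa11, Hoxc11, Hoxc13, Hoxd9, Hoxd10, Hoxd11, Hoxd12 and Hoxd13, with log2 differences of -0.84 to 2.12, and Hoxa13 was too low to be tested. In the knockout, Hoxc11, Hoxd9 and Hoxd10 passed as well, at 1.87 ± 0.64, 0.52 ± 0.20 and 0.91 ± 0.27. The wild-type calls of Hoxa4, Hoxb13, Hoxc10 and Hoxc12 were each lost under at least 1 alternative, and the other 20 held under all of them. In the knockout the calls of Hoxa4, Hoxb13, Hoxc10, Hoxc11 and Hoxd9 were each lost under at least 1 alternative, and the other 23 held.

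The makeup of the Hox message therefore differed between the cell types. Counted per kb of exon, HoxB genes made up 64.1%, 60.8% and 68.9% of summed Hox levels in wild-type motor neurons and 31.5% and 37.0% in wild-type endothelial cells, and 58.2% to 66.2% against 33.3% to 36.5% in the knockout. Hoxb8 and Hoxb9 together made up 47.6% ± 3.47 (SD, n = 3) in wild-type motor neurons and 17.9% ± 3.32 (SD, n = 2) in endothelial cells. Paralogue groups 10 to 13 made up 5.25% ± 0.87 in wild-type motor neurons and 17.7% ± 1.42 in wild-type endothelial cells, and 4.82% ± 1.26 against 14.1% ± 2.31 (SD, n = 3 each) in the knockout. These shares showed no overlap between cell types. The summed Hox level was 2706 ± 353 CPM per kb in wild-type motor neurons (SD, n = 3) and 612 ± 166 in wild-type endothelial cells (SD, n = 2). In the knockout it was 2508 ± 366 against 597 ± 76.2 (SD, n = 3 each). A lower share therefore does not by itself mean a lower level. Per kb, the leading genes of wild-type motor neurons were Hoxb9 with 700 ± 115 CPM per kb, Hoxb8 with 595 ± 149 and Hoxb6 with 159 ± 20.2 (SD, n = 3). The SDs of Hoxb9 and Hoxb8 overlap, but within each of these libraries Hoxb9 lay above Hoxb8. In wild-type endothelial cells Hoxb9, Hoxb8, Hoxa5 and Hoxc10 led with 63.9 ± 24.0, 48.7 ± 26.1, 46.2 ± 15.7 and 42.4 ± 1.81 CPM per kb (SD, n = 2). Hoxb9 was highest in each library, and the order of the others changed between libraries.

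**Figure D3:**
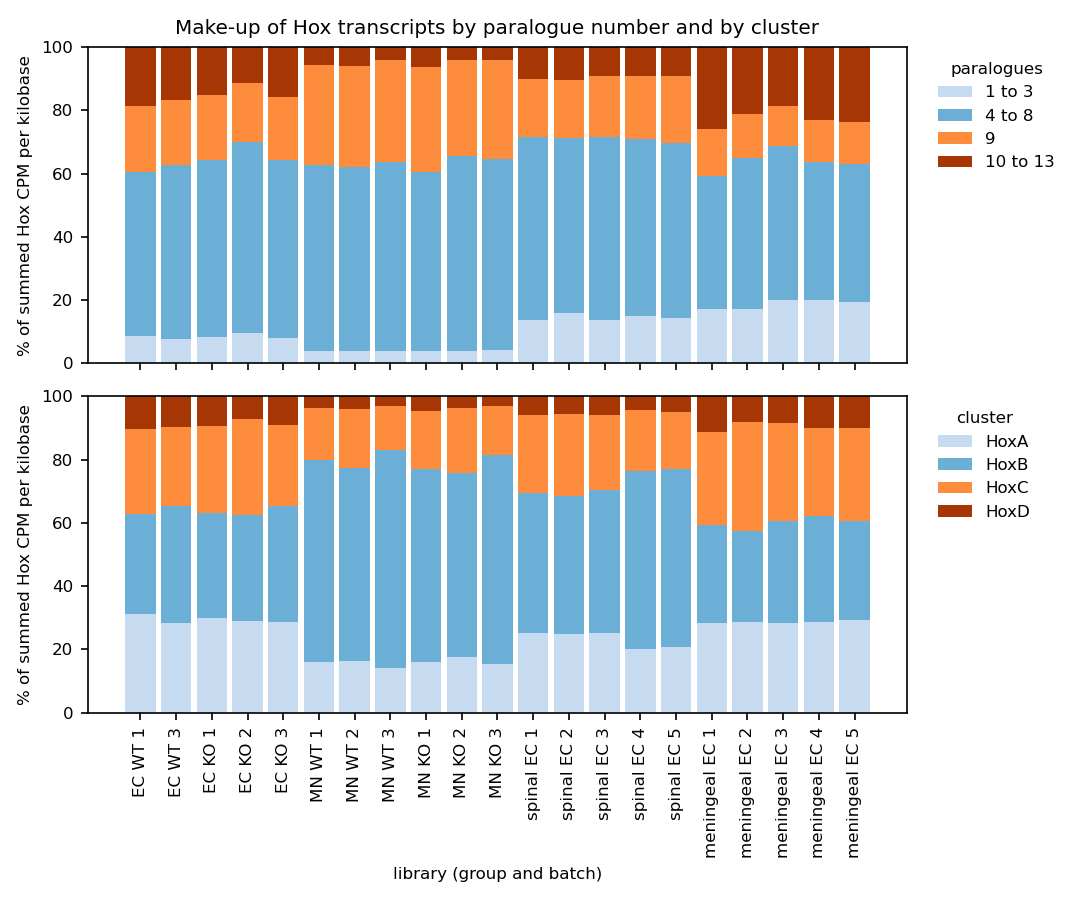
Share of the summed Hox level (CPM per kb, y axis in percent) held by each band of paralogue numbers and by each cluster, as stacked bars from 0 for each library. HoxB genes take 58.2% to 68.9% in the motor neuron libraries and 31.5% to 37.0% in the endothelial libraries of the same series.

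Levels of Hoxb8 also varied among endothelial libraries, and neural RNA varied with them. Across the 5 endothelial libraries of the knockout series Hoxb8 increased from wild-type batch 1 through knockout batch 2, knockout batch 1 and knockout batch 3 to wild-type batch 3. The summed level of the 7 neural progenitor and interneuron markers had the same order, from 80.7 CPM through 119, 121 and 230 to 244 CPM, and motor neuron markers summed to 57.4 to 100 CPM in these libraries. Hoxc8 had another order, with its highest value, 69.0 CPM, in knockout batch 2 and 61.8 CPM in wild-type batch 3. The part of such neural RNA in the endothelial Hox levels was not tested.

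Partners and regulators of Hox proteins were read from lists chosen for their roles, and their counts stand beside the 64.8% of all genes that passed in this comparison, 31.0% as higher. Of 9 TALE cofactors, 7 were higher and 1 was lower in wild-type motor neurons than in endothelial cells. Meis1 and Meis2, which bind DNA with Hox and Pbx proteins, were 1.72 ± 0.21 and 2.23 ± 0.36 higher on the log2 scale, Pbx3 was 1.50 ± 0.13 higher, and Pbx2 was lower, at -0.61 ± 0.09. All 3 tested of 6 posterior regulators were higher: Gdf11, a secreted signal that promotes posterior Hox expression in the cord, rose by 1.42 ± 0.13, and Evx1 and Evx2, homeobox genes at the ends of the HoxA and HoxD clusters that also mark interneurons, by 4.43 ± 0.60 and 5.15 ± 0.61. Of 9 genes that depend on Hox activity in motor neurons, 5 were higher and 2 lower. Pou3f1 and Etv4, which mark motor columns and pools, rose by 3.58 ± 0.60 and 2.14 ± 0.60, Foxp1, a partner of Hox proteins in limb motor neurons, did not pass at 0.22 ± 0.29, and Aldh1a2, a retinoic acid synthesis enzyme also abundant in meninges, fell by 2.88. Of 15 Polycomb and Trithorax genes, which keep Hox chromatin silent or active, 8 were higher and 3 lower. The shares of the last 2 lists that passed lie near that of all genes.

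Loss of Plxnd1 changed no Hox gene past the threshold in either cell type. In endothelial cells 0 of 37 tested members passed, beside 0% of 18209 genes (431 with an unadjusted p under 0.05), and 1 member had an unadjusted p under 0.05. In motor neurons 0 of 38 passed, beside 0.0120% of 16695 genes, and 0 had an unadjusted p under 0.05. The difference of the knockout effect between the cell types passed for 0 of 38 members, beside 0% of 19266 genes (352 with an unadjusted p under 0.05), with 0 members under 0.05 unadjusted. DESeq2 called 0 members in each of these comparisons, and 30, 4 and 1 genes in all. With batch as a block the counts over all genes were 180, 6 and 5, and 0 members were called. The endothelial block fit left 1 residual degree of freedom, with knockout batch 2 unpaired, and the motor neuron block fit left 2.

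Among the members, Hoxb8 was at 96.3, 86.1 and 156 CPM in knockout against 79.9 and 177 CPM in wild-type endothelial cells, groups that overlap. Hoxd1, at 2.58, 3.60 and 2.75 CPM in the knockout against 1.24 and 2.09 CPM, was the member with an unadjusted p under 0.05, with a log2 difference of 0.84 ± 0.33 and an adjusted p of 0.9994 (edgeR). Its groups did not overlap, which held for 3 members lying above and 1 below in the knockout. Of the 22922 genes with 10 or more counts, 6.57% lay all above and 8.17% all below. Log2 differences of the members ranged from -1.37 to 0.84 in endothelial cells and from -1.14 to 0.17 in motor neurons.

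The most negative differences were those of paralogue groups 11 to 13, for which the batch 2 knockout libraries were mostly the lowest of their cell type. The batch 2 knockout endothelial library was the lowest of the 5 endothelial libraries for 11 of the 12 members of groups 10 to 13, but for 1 of 8 in groups 1 to 3 and 2 of 15 in groups 4 to 8. The batch 2 knockout motor neuron library was the lowest of 6 for 10 of the 12, 5 of 8 and 6 of 15. Wild-type motor neurons of the same batch were not low, being the highest of 6 for 5 of the 12. Other endothelial libraries lay at an extreme too. Wild-type batch 1 was the lowest for 13 of 15 members of groups 4 to 8, and wild-type batch 3 the highest for 10 of 12 in groups 10 to 13. The same count over all genes was not made.

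Single genes show the size of this gap. Hoxc13, which acts in hair and nails and at the tail end of the body, was at 7.77, 0 and 5.09 CPM in knockout motor neurons and at 8.40, 9.28 and 10.3 CPM in wild-type ones. The other 5 libraries averaged 8.16 CPM, at least 67.4-fold more than the batch 2 knockout library at a floor of 3 counts per library. In endothelial cells the gene was at 1.11, 0.0360 and 1.37 CPM in the knockout, the middle value being 1 count, and at 1.35 and 2.92 CPM in wild type. In each cell type 1 library stood apart, and the other knockout libraries lay in or below the wild-type range.

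Hoxc12 was likewise lowest in the batch 2 knockout library of each cell type. It was at 11.97, 2.502 and 9.95 CPM in knockout and 12.2, 14.8 and 11.5 CPM in wild-type motor neurons. In endothelial cells it was at 0.676, 0.180 and 2.79 CPM against 0.889 and 3.53 CPM. Hoxd11, which patterns the forearm and the sacral region, was at 5.57, 0.468 and 5.11 CPM in knockout and 2.67 and 10.3 CPM in wild-type endothelial cells, a gap of 12.6-fold between the mean of the other libraries and batch 2. Hoxa11, of the same group and role, was at 10.2, 3.60 and 16.0 CPM against 13.7 and 16.0 CPM. In motor neurons the gap was small for these genes: Hoxd11 was at 2.46 CPM in batch 2 of the knockout against 2.70 to 5.32 CPM in the others, 1.63-fold, and Hoxa11 at 7.39 CPM lay within the 6.94 to 14.3 CPM of the others. Hoxd12 had 0 counts in the batch 2 knockout motor neurons, at least 11.5-fold below the mean of the others. The level at which cords were cut along the body axis is not given by the labels, and its part in these values was not tested.

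**Figure D4:**
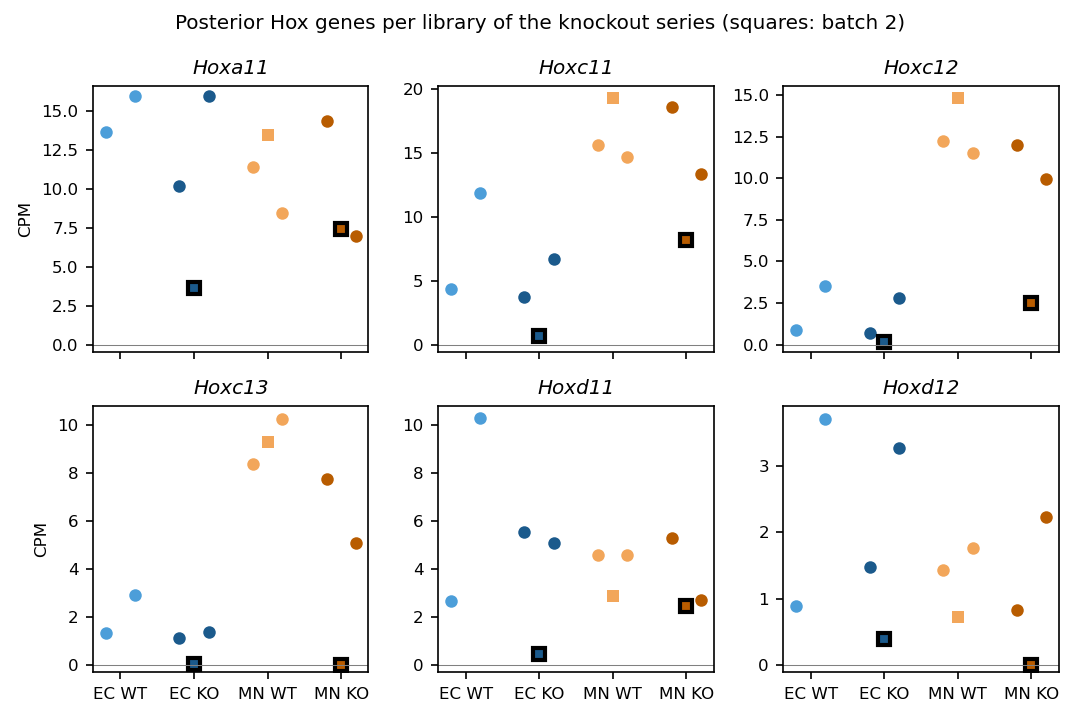
CPM of Hoxa11, Hoxc11, Hoxc12, Hoxc13, Hoxd11 and Hoxd12 in each library of the knockout series (linear axis from 0), with wild-type and knockout libraries of each cell type side by side. Black-edged squares mark the knockout batch 2 libraries, which lie lowest of their cell type in every panel except Hoxa11 in motor neurons.

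With both batch 2 knockout libraries left out, a choice made after these values were seen, 24 members were called between wild-type cell types, 26 between knockout ones (25 higher and 1 lower), and 0 for the difference in knockout effect.

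Among endothelial libraries, those of the cord parenchyma carried more middle-group Hox message than those of the meninges, and less of Hoxa10 and Hoxa11. These libraries also differed in neural, pericyte and mesenchymal RNA, as given below, and its part was not tested. Of 33 members tested, 21 were higher in spinal cells, beside 24.8% of 16213 genes tested, and 2 were lower, beside 23.0%, with 47.8% of all genes passing in either direction. The median log2 fold change of the members was 0.77 against 0.01 over all genes. For 15 of 39 members all 5 spinal libraries lay above all 5 meningeal ones, and for 2, Hoxa11 and Hoxd1, they lay below, beside 3472 genes above and 3226 below of the 23177 with 10 or more counts. The number called was 19 to 24 when 1 library was left out, 22 with batch as a block and 20 in the ventral batches alone.

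Hoxb8 was the tested member with the largest difference. It was at 140, 67.8, 181, 160 and 155 CPM in spinal batches 1 to 5 and at 19.3, 18.0, 21.8, 19.9 and 20.3 CPM in the meningeal libraries. Spinal batch 2 was the lowest spinal library and still lay above every meningeal one. The log2 fold change was 2.82 ± 0.22 (adjusted p = 8.156e-07, edgeR).

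Hoxb9 was at 163, 103, 253, 175 and 185 CPM in spinal and at 40.1, 38.4, 34.9, 36.6 and 33.7 CPM in meningeal libraries, with no overlap and a log2 fold change of 2.26 ± 0.19 (adjusted p = 1.539e-06, edgeR). Hoxa6, a trunk-level gene, was at 17.2, 9.30, 26.8, 11.1 and 9.12 CPM against 3.38 to 5.90 CPM, and rose by 1.72 ± 0.31. Hoxd4, a gene of the hindbrain and neck, was at 10.3, 5.91, 14.2, 4.77 and 5.03 CPM against 1.42 to 3.21 CPM, 1.68 ± 0.34 higher on the log2 scale. Hoxb6, Hoxb7 and Hoxa5 rose by 1.57, 1.47 and 1.40, and the other called members by 0.54 to 1.27 except Hoxc12.

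Hoxa11, which acts in limb skeleton and uterus, went the other way. It was at 6.15, 4.16, 6.93, 4.64 and 4.61 CPM in spinal and at 19.5, 17.0, 10.8, 15.3 and 16.9 CPM in meningeal libraries. All meningeal libraries lay above all spinal ones, and the log2 difference was -1.58 ± 0.20 (adjusted p = 2.914e-05, edgeR). Hoxa10 was at 37.9, 21.2, 45.0, 20.7 and 25.9 CPM against 56.9, 43.7, 42.4, 45.8 and 55.5 CPM, overlapping at spinal batch 3, with a difference of -0.70 ± 0.21 (adjusted p = 0.01636, edgeR). In the ventral batches alone that difference was -0.48 and did not pass (adjusted p = 0.1883, edgeR). In the whole-cord batches 4 and 5 alone it was -1.13 (adjusted p = 1.3e-05, edgeR).

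Over all regional libraries Hoxc10 showed no difference beyond the spread, at 27.7 to 57.7 CPM in spinal and 43.5 to 51.7 CPM in meningeal libraries (log2 difference -0.26). In the whole-cord batches alone it was lower in spinal cells, at -0.73 (adjusted p = 0.0001155, edgeR), and in the ventral batches alone the difference was -0.05. Hoxd9, Hoxd10, Hoxd11 and Hoxd12, of the lumbar, sacral and limb domains, had log2 differences of -0.46 to -0.07 that did not pass. In the whole-cord batches alone Hoxd9 and Hoxd11 passed, at -0.94 and -0.75 (adjusted p = 0.0002899 and 0.04941, edgeR), and Hoxd10 and Hoxd12 did not. Hoxc12 was at 1.23, 0.492, 1.48, 4.12 and 3.11 CPM in spinal libraries and at 0.193 to 0.701 CPM in meningeal ones. It was 2.67 ± 0.58 higher on the log2 scale (adjusted p = 0.002206, edgeR), and in the ventral batches alone 1.50 higher with an adjusted p of 0.08717. In the whole-cord batches alone it was 3.79 higher (adjusted p = 7.619e-06, edgeR).

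**Figure D5:**
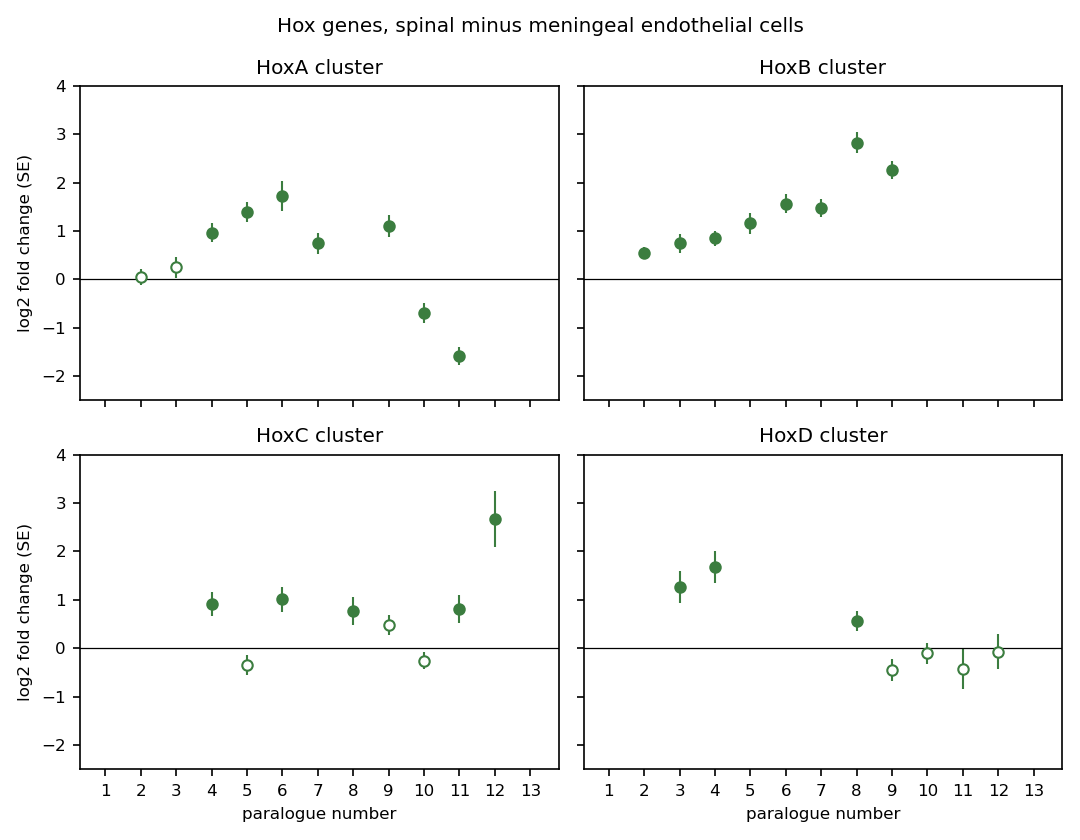
Log2 fold change of spinal over meningeal endothelial cells (y axis, with SE bars) against paralogue number (x axis), by cluster. Filled symbols have an adjusted p under 0.05 in edgeR. Hoxb8 is highest at 2.82, and Hoxa10 and Hoxa11 are the called members below 0.

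Hoxa2, Hoxa3, Hoxc5 and Hoxc9 did not pass over all regional libraries either, at -0.35 to 0.48. In the whole-cord batches alone Hoxc5 passed at -0.66 and Hoxc9 at 0.64 (adjusted p = 0.0002729 and 0.0008325, edgeR). Hoxc8 and Hoxd8, called over all libraries, did not pass there, at 0.36 and 0.08. Hoxa13, Hoxb1, Hoxb13, Hoxc13, Hoxd1 and Hoxd13 were too low to be tested over all libraries. Of these, Hoxd1 was at 0.131 to 0.311 CPM in spinal and 0.378 to 0.935 CPM in meningeal libraries, with no overlap. Hoxc13 passed the low-count filter in the whole-cord batches alone, through spinal libraries that held 57 and 71 counts. Meningeal libraries of all batches held 0 to 16 counts. The log2 difference in these batches was 3.84 ± 0.43. Because the gene entered the test only through the group where it is high, its p-value is not given as support.

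By share of summed levels per kb, HoxB genes made up 43.6% to 56.3% in spinal and 28.8% to 33.7% in meningeal libraries, and paralogue groups 10 to 13 made up 9.51% ± 0.60 against 22.4% ± 2.73 (SD, n = 5 each). Neither pair of ranges overlapped. The summed Hox level was 516 ± 153 CPM per kb in spinal and 274 ± 16.8 in meningeal libraries (SD, n = 5 each), so a share does not by itself give a level. Per kb the leading spinal genes were Hoxb9 with 68.3 ± 20.9 and Hoxb8 with 53.4 ± 16.4 CPM per kb, followed by Hoxa5 with 32.2 ± 11.9. The SDs of Hoxb9 and Hoxb8 overlap, but Hoxb9 lay above Hoxb8 in every spinal library. In meningeal cells Hoxc10 led with 25.0 ± 1.98 CPM per kb, above Hoxb2 with 16.7 ± 1.89 and Hoxb3 with 15.9 ± 1.88 (SD, n = 5).

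Cell content differed between the regions too. All 7 neural progenitor and interneuron markers were higher in spinal libraries, where they summed to 295, 157, 387, 195 and 192 CPM in batches 1 to 5 against 5.34 to 11.8 CPM in meningeal libraries. Spinal batch 2, the lowest for Hoxb8, was also lowest for these markers, and batch 3 was highest for both. All 5 pericyte markers and 7 of 8 endothelial markers were higher in spinal libraries, and all 9 meningeal and mesenchymal markers were lower. The part of neural and mesenchymal RNA in the Hox differences was not tested.

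Of the 9 TALE cofactors 5 were higher and 0 lower in spinal cells, a share near the 47.8% of all genes that passed. Meis2 rose by 2.34 ± 0.19, Pbx4 by 1.12 ± 0.25, and Pbx3, Meis1 and Meis3 by 0.84, 0.68 and 0.62 on the log2 scale. Among the genes that depend on Hox activity in motor neurons, 5 of 9 were higher and 1 was lower, beside the same background: Pou3f1 and Etv4 rose by 4.49 ± 0.35 and 1.82 ± 0.15 and Aldh1a2 fell by 5.05.

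Within spinal endothelial cells, ventral cord was used in batches 1 to 3 and whole cord in batches 4 and 5, so the dissection and the batch cannot be told apart. Of 37 members tested 3 passed, beside 10.7% of 17901 genes. Hoxc13 was at 0.234, 0.383 and 0.0900 CPM in ventral libraries and at 3.73 and 3.68 CPM in whole-cord libraries, a log2 difference of -3.97 ± 0.86 (adjusted p = 0.02009, edgeR). Ventral libraries held 2 to 7 counts of it, so it entered this test through the whole-cord libraries and its p-value is not independent support. Hoxc6 and Hoxc10 were higher in ventral libraries by 0.97 ± 0.25 and 0.69 ± 0.18. Cell content moved with the dissection: all 5 macrophage markers were lower in ventral libraries, with sums of 779 to 1227 CPM against 2496 and 2556 CPM, and 5 of 9 meningeal and mesenchymal markers were higher, with sums of 1970 to 2588 CPM against 1307 and 1438 CPM. Their part in the Hox values was not tested. The Hox calls were not stable: leaving out 1 library gave 0 to 19 members, 0 without any of spinal replicates 1, 3, 4 and 5 and 19 without spinal replicate 2.

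The HoxB share was 44.3% ± 0.85 (SD, n = 3) in ventral and 56.2% ± 0.13 (SD, n = 2) in whole-cord libraries, with no overlap. In meningeal cells, between batches 1 to 3 and 4 to 5, 0 of 37 members passed in edgeR, beside 0.0335% of 17901 genes, with 1 member and 2352 genes under an unadjusted p of 0.05, and DESeq2 called 0 members and 122 genes. The change of the spinal-to-meningeal difference between these batches passed for 0 members, beside 0.547% of genes, with 5 members and 3582 genes under an unadjusted p of 0.05, and DESeq2 called 1 member, Hoxc13, and 1210 genes.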

How the data were processed

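Poly(A) RNA of sorted cells was sequenced from 22 libraries, 21 of which were used. Per the labels' protocols, libraries were made with a stranded TruSeq kit. Per the submitters' processing notes, reads were handled with Trimmomatic 0.39, STAR 2.5.3a, featureCounts 1.6.4 and DESeq2 on mm10 (GRCm38). The deposited values are raw counts per gene, summed over exons by the authors. Per the file headers, the knockout series was counted as single reads without strand and the regional series as read pairs on the reverse strand. Reads of several places or genes were not counted, which lowers overlapping genes. CPM used TMM-scaled library sizes within a series. A gene whose groups held 0 counts was set against a floor of 3 counts per library, and floors cover counting error only.

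Tests were edgeR 4.0.16 quasi-likelihood fits in R 4.3.3 over all genes kept by filterByExpr with a minimum count of 10, with Benjamini-Hochberg adjustment and a threshold of 0.05. Motor neurons against endothelial cells and the knockout interaction used all knockout-series libraries, knockout effects each cell type, and the spinal against meningeal test all regional libraries. SE is the log2 fold change over the root of F. The fits were tested on simulated data. Alternatives were RLE scaling, no filter, DESeq2 1.42.0, each library left out and batch as a block. The labels number batches, and deviations of same-numbered libraries correlated at 0.568 and 0.656 in endothelial cells and 0.285 to 0.482 in motor neurons between genotypes, and at -0.361 to 0.344 between spinal and meningeal cells. The text names Hox members and genes of lists of cofactors, regulators, targets and cluster transcripts that passed a test or had a high level; Foxp1 and Hotair were added after their values were seen. The members and lists were chosen with earlier results of these data known. For 1 member, values are not reported here, though it enters the counts and summed shares. Promoter sequences are from RefSeq (GRCm38.p6); proteins were not used here.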

Additional observations from a re-analysis of the deposited data

Results flagged for a closer look

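Among 74 groups of 4 or more libraries examined for a library far from the others, 2 values passed Dixon's 95% criterion of 0.71 for 5 libraries, a criterion that chance meets in about 1 of 20 groups. Hoxc11 was at 2.13 CPM in spinal batch 2, against 5.49 to 6.34 CPM in the other 4 spinal libraries. Hoxd12 was at 1.56 CPM in meningeal batch 1, against 0.818 to 1.01 CPM in the other meningeal libraries.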

How the results depend on the processing

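Fold changes of single members were followed under the alternatives where the main fit called them, and for a chosen set of uncalled members in the knockout comparisons. Among the alternative values of single members followed, 1420 kept direction and side of the threshold, 85 no longer passed and 13 reversed. Other uncalled members are not in these counts, so reversals among them were not counted. For motor neurons against endothelial cells, 20 of 24 wild-type calls and 23 of 28 knockout calls held under every alternative, and for spinal against meningeal cells 16 of 23, the exceptions being Hoxa7, Hoxa10, Hoxb2, Hoxc8, Hoxc11, Hoxc12 and Hoxd8. No member was called for the knockout under any alternative. Between ventral and whole cord the number of members called was 3, with no filter 15, with DESeq2 7 and with 1 library left out 0 to 19, and for the difference of regions between batches it was 0, 2, 1 and 0 to 3. The cause was not tested.

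Over all genes, DESeq2 called 30 in knockout endothelial cells, 4 in knockout motor neurons and 1 for their difference. With the replicate block, which pairs batches where both genotypes have a library, these were 180, 6 and 5, and no Hox call of the knockout changed. The 180 came from a fit with 1 residual degree of freedom. With no filter the counts were 2 in endothelial cells and 4 in motor neurons, in one fit of all libraries 1 each, and with 1 library left out 0 to 1 in all 3. Ventral against whole cord gave 3240 genes with no filter, 3066 with DESeq2 and 15 to 3122 with 1 library left out. Early against late meningeal batches gave 835, 122 and 1 to 9. The difference of regions between batches gave 1780, 1210 and 0 to 1190, with RLE scaling 305 and with the replicate block 4.

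With log2(CPM + 1) in place of CPM per kb, differences in share fell in size to -2.04 points (motor neurons minus endothelial cells) and -3.07 (spinal minus meningeal) for paralogues 10 to 13, and to 4.51 and 3.59 for HoxB. With 1 library left out they were -13.4 to -11.4, -13.9 to -12.1, 27.6 to 33.1 and 15.9 to 19.1 points.

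Reversed values were log2 knockout effects that had not passed. In endothelial cells with the replicate block they were 0.0404 for Hoxb8 and 0.16 for Hoxb9, and for Hoxb9 0.0145 with RLE scaling and 0.01 with DESeq2. With 1 library left out, endothelial ranges were -0.64 to 0.50 for Hoxb8, -0.33 to 0.44 for Hoxb9, -2.37 to 0.41 for Hoxc12 and -1.47 to 0.47 for Hoxd11, and motor neuron ranges -0.30 to 0.0051 for Hoxb9, -0.0026 to 0.30 for Hoxd1 and -0.77 to 0.50 for Hoxd13. RLE scaling moved the median of all genes by at most 0.05.

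Depth limits the lowest members: Hoxa13, Hoxb13, Hoxd13, Hoxc13, Hoxb1 and Hoxd1 were too low to be tested between regions over all libraries. Wild-type endothelial cells have n = 2.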

Other observations

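Other transcripts of the Hox clusters, from a list of 46 non-member genes within them, were also counted. Of 28 tested between wild-type motor neurons and endothelial cells, 11 were higher and 2 lower, beside 64.8% of all genes that passed, and of 16 tested between spinal and meningeal endothelial cells 3 were higher and 3 lower, beside 47.8%, so both shares lie below that of all genes. Hoxb5os, antisense within HoxB, was higher in both comparisons, by 1.53 ± 0.27 and 2.48 ± 0.32 on the log2 scale. Hoxa11os, antisense to Hoxa11, was lower in spinal cells at -0.89 ± 0.28, and Haglr, a non-coding gene of the HoxD cluster, at -2.31 ± 0.33. Hotair, a non-coding gene between Hoxc11 and Hoxc12, did not pass between cell types at 1.07 ± 0.76. In the knockout series antisense pairs cannot be told apart, because counts ignored strand.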
